A study of Mus musculus with 12 samples.

Results

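The genes described here are 10 members of the Hippo pathway and its YAP and TAZ targets: Yap1, Wwtr1, Tead1, Lats1, Lats2, Ccn1, Ccn2, Amotl2, Ajuba and Ankrd1. They were found by gene symbol in the deposited table of TPM, a transcript abundance scaled for gene length and library size, and their read counts were joined by gene identifier. Of the 10, 9 had a row among the 15767 genes of the tables, and Yap1 was not analysed here. In all, 12 RNA libraries came from cultures of Neuro-2a, an established neuroblastoma line of the mouse with the genotype WT (wild type) in the labels. The 3 groups of 4 libraries were transfected with a control small RNA (miR-Con, titled NC), with a miR-155 mimic, which supplies the microRNA, or with an inhibitor of miR-155. All groups were transfected with the reagent RNA Fit in medium without serum or antibiotics, received complete growth medium after 4 h and were cultured until day 2. Each library carries a replicate number from 1 to 4, and the labels do not say what a number stands for or that libraries came from separate cultures. The p-values below therefore rest on a spread between libraries that could be technical. The density of the cultures was not analysed here.

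The Hippo pathway is a kinase cascade that restrains growth. MST kinases (Stk3, Stk4) with the scaffold Sav1 activate LATS kinases (Lats1, Lats2) and their MOB partners, and LATS phosphorylates the co-activators YAP (Yap1) and TAZ (Wwtr1), which are then held in the cytoplasm or degraded. When LATS is less active, as in sparse or spread cells, YAP and TAZ enter the nucleus and bind DNA through TEAD factors (Tead1 and its relatives). Among the genes they switch on are the secreted matrix proteins Ccn1 (also called Cyr61) and Ccn2 (CTGF), the ankyrin repeat protein Ankrd1, and regulators that act back on the pathway, such as Lats2, the YAP-binding angiomotin family protein Amotl2 and the LIM-domain protein Ajuba, which binds LATS. For this reason Ccn1, Ccn2 and Ankrd1 are widely read as signs of how crowded or stretched a culture is.

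TEAD factors bind the letters CATTCC, or GGAATG on the other strand, and these letters are in capitals in the promoters shown next. They are printed because the 2 members that differed by replicate number, Ccn1 and Wwtr1, both hold them, as do the low members Amotl2, Ajuba, Lats2 and Ankrd1. The promoters are RefSeq's, run from 250 bases before to 50 bases after the start site, are written 5' to 3' on the gene's strand, and use GRCm38.p6, not the build of the deposited tables. Ccn1 lies at chr3:145649936-145650235 (minus strand) and Wwtr1 at chr3:57575861-57576160 (minus strand), and both are shown whole.
Ccn1: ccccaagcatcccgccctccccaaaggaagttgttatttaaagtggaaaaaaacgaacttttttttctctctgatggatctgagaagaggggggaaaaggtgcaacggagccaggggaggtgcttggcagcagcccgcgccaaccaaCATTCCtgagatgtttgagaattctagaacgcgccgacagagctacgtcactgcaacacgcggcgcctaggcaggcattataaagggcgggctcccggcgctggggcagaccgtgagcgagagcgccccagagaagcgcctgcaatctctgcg
Wwtr1: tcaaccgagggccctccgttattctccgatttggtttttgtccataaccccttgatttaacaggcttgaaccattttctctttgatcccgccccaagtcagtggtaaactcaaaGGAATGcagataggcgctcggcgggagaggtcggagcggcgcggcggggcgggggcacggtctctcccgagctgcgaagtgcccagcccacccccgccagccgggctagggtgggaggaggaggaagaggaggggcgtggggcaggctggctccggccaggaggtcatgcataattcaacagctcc
Only the stretch around the motif is shown for Amotl2 (promoter at chr9:102717554-102717853, plus strand), Ajuba (chr14:54577612-54577911, minus strand), Lats2 (chr14:57746074-57746373, minus strand) and Ankrd1 (chr19:36119795-36120094, minus strand).
Amotl2: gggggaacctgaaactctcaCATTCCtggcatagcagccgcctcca
Ajuba: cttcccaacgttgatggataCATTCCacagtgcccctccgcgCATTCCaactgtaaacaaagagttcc
Lats2: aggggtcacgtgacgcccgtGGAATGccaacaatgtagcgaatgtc
Ankrd1: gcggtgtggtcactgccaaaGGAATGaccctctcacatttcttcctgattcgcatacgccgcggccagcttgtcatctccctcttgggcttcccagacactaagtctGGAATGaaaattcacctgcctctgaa
The first base of the motif lies 103 bases before the start site in Ccn1, 136 before it in Wwtr1 and 65 before it in Amotl2. Ajuba has matches at 186 and 164 bases before the start site, Ankrd1 at 210 and 123, and Lats2 at base 5 after it. Of 8 members with a promoter entry, Yap1 included, 7 hold the motif in at least 1 promoter on either strand. Lats1 does not, and Tead1 and Ccn2 were not analysed here. By promoter, 8 of the members' 10 hold it, against 14.7% of 32851 mouse promoters of the same length. A second Wwtr1 promoter overlaps the one shown and holds the same match, and a second Lats2 promoter holds none. Several members were listed as YAP and TAZ targets, so this share cannot be separated from the choice of genes. The AP-1 letters TGACTCA, or TGAGTCA on the other strand, occur in 0 of the members' 10 promoters and in 5.2% of all promoters. Such matches are letters in a window and not measured binding sites.

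The transfected microRNA, miR-155-5p, is shown with its seed (bases 2 to 8) in capitals, since a mimic acts on messages that pair with it. It lies at chr16:84714143-84714165, plus strand, in GRCm38.p6.
mmu-miR-155-5p: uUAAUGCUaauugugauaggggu
Matches to the seed were searched in the longest annotated 3' UTR of each gene (GENCODE M21, GRCm38). Ccn1 has 1 match to seed bases 2 to 8, and Lats2 has 1 match to bases 2 to 7 followed by A, both in capitals here.
Ccn1: ttgagtAGCATTAgggtatt
Lats2: ttcactGCATTAAaacagta
The Ccn1 match begins at base 103 and the Lats2 match at base 152 of the UTR. The other 7 measured members have 0 matches, and among 12853 genes tested for expression 13.2% have at least 1.

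Total counts ran from 60695388 to 74200532 per library. The TPM values follow the counts with a fixed length per gene, so both tables carry the same differences between libraries. The line's own markers were present, with mean TPM of 1780 for Hand2 and 944 for Phox2a, while Th stood at 1.15. The 3 libraries numbered 4 stood apart from the rest: after the group means were taken off, they correlated with each other at 0.444 to 0.526 over genes, against -0.0709 to 0.218 within numbers 1 to 3. Treatment results are therefore given with and without them. Of the markers of other cell types, Ptprc (immune) and Epcam (epithelial) were at 0.000742 and 0.00378 TPM, while Pecam1 (endothelial) was at 2.06, Cd68 (macrophage) at 0.268 and Krt8 (epithelial) at 3.63 TPM.

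In TPM, which sets genes on a per-length scale, the 9 measured members fell into an expressed set of 4 and a low set of 5. Over the 12 libraries Lats1 averaged 31.2 ± 5.00 TPM (SD, n = 12), Ccn1 19.6 ± 16.8, Tead1 16.8 ± 2.63 and Wwtr1 16.6 ± 3.73. The low set was Lats2 at 0.455 ± 0.148 TPM, Amotl2 at 0.211 ± 0.0522, Ajuba at 0.101 ± 0.0715, Ankrd1 at 0.0692 ± 0.0878 and Ccn2 at 0.0307 ± 0.0386. The lowest value of the expressed set was 8.85 TPM, for Ccn1, and the highest of the low set was 0.782 TPM, for Lats2, so the sets did not overlap in any library. Lats1 overlapped Ccn1, Tead1 and Wwtr1 overlapped over most of their range, and in the low set the ranges of neighbours overlapped, although Lats2 was above Amotl2 in each of the 12 libraries. TAZ, TEAD1 and LATS1 messages were thus measured at mean levels of 16.6 to 31.2 TPM while 4 textbook targets (Ccn2, Ankrd1, Amotl2 and Ajuba) had means of 0.0307 to 0.211 TPM, and Ccn1 had the highest mean of the targets among the members. The lengths that the TPM imply differ from annotated exon lengths: relative to Ccn1, Tead1 is 28.4 times as long by TPM and 6.72 times by the union of its GRCm38 exons, and the gap was 7.7 against 3.61 for Lats1 and 8.33 against 3.45 for Lats2. The order of the members in TPM, the first place of Lats1 included, therefore rests on the authors' lengths.

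**Figure D1:**
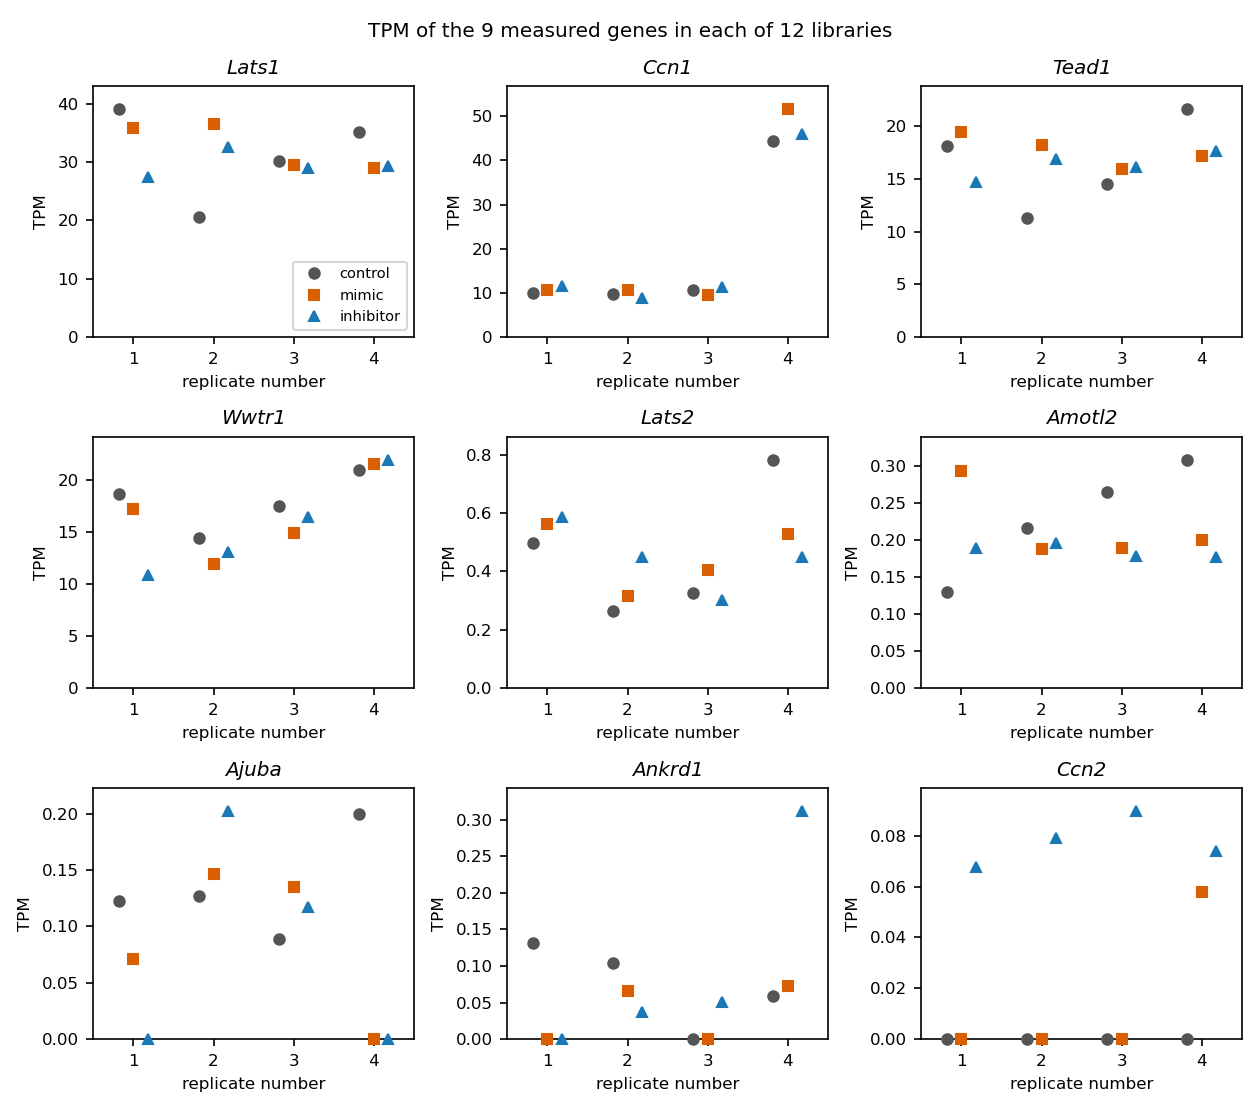
TPM (vertical axis, from 0, a scale of its own for each gene) of the 9 measured genes in each of the 12 libraries, by replicate number (horizontal axis) and treatment (circles control, squares mimic, triangles inhibitor). The 3 Ccn1 values of number 4 sit between 44.5 and 51.7 TPM and the other 9 between 8.85 and 11.6, while the treatments overlap in every gene but Ccn2.

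The first question of the design was whether the mimic or the inhibitor changed these genes relative to the control. Neither did by the test used. Of 6 members that passed the filter on low counts (Wwtr1, Tead1, Lats1, Lats2, Ccn1 and Amotl2), 0 were called at an adjusted p under 0.05 in edgeR's quasi-likelihood test of mimic against control, inhibitor against control or mimic against inhibitor, beside 0% of all 13014 genes tested in each comparison. At an unadjusted p under 0.05 there were also 0 members, against 71, 67 and 77 genes in all. DESeq2 and limma on log2 TPM called 0 members as well, DESeq2 giving no adjusted p for Ccn1. Of all 15732 genes, DESeq2 called 3, 1 and 6 in the same order of comparisons. Filtered limma called 0 of 11730 genes, and unfiltered limma called 1 of 15767, for mimic against inhibitor. Lats2 and Amotl2 fell below the TPM minimum of 1 used with limma and were tested there only without a filter. A missed threshold does not show that the groups were alike. The half-widths of the 95% intervals ran from 0.302 to 1.59 on the log2 scale.

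Among the kinases, Lats1 measured 39.1, 20.6, 30.1 and 35.2 TPM in the control libraries numbered 1 to 4. It measured 35.9, 36.6, 29.6 and 28.9 TPM in the mimic libraries and 27.5, 32.5, 28.9 and 29.3 TPM in the inhibitor libraries. The control libraries spanned the values of both other groups, with library 2 the lowest of all 12. The log2 fold change of Lats1 was 0.04 (95% interval -0.26 to 0.35) for mimic against control and -0.07 (-0.37 to 0.23) for inhibitor against control. Lats2, the less abundant LATS kinase here, ranged from 0.264 to 0.782 TPM in control, from 0.316 to 0.561 in mimic and from 0.302 to 0.585 in inhibitor libraries. Its fold changes were -0.06 (-0.80 to 0.67) and -0.05 (-0.78 to 0.69) on the log2 scale, and its seed match was thus not accompanied by a difference that could be measured at this depth.

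Wwtr1, which encodes the co-activator TAZ, measured 18.7, 14.4, 17.6 and 21.0 TPM in control, 17.3, 11.9, 14.9 and 21.5 in mimic and 10.9, 13.1, 16.4 and 22.0 in inhibitor libraries. The groups overlapped, and number 4 was the highest library in each. Its log2 fold change was -0.15 (95% interval -0.62 to 0.33) for mimic and -0.20 (-0.67 to 0.28) for inhibitor against control. Tead1, the TEAD factor with the highest TPM in these cells, measured 18.1, 11.3, 14.6 and 21.6 TPM in control, 19.4, 18.2, 16.0 and 17.2 in mimic and 14.7, 16.9, 16.2 and 17.6 in inhibitor libraries. Both its lowest and its highest library were controls, numbers 2 and 4. Its log2 fold changes were 0.09 (-0.22 to 0.39) and 0.01 (-0.30 to 0.31).

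Ccn1 was the one well expressed target among the members. It measured 10.1, 9.86, 10.6 and 44.5 TPM in control, 10.6, 10.7, 9.59 and 51.7 in mimic and 11.6, 8.85, 11.5 and 46.0 in inhibitor libraries. Within each group 3 libraries lay close together and number 4 stood far above them. The log2 fold change was 0.14 (95% interval -1.45 to 1.74) for mimic and 0.07 (-1.52 to 1.66) for inhibitor against control, the widest intervals among the members. With the libraries numbered 4 left out, the intervals closed to -0.04 (-0.38 to 0.31) for mimic and 0.06 (-0.28 to 0.40) for inhibitor against control. In these 9 libraries a fall of Ccn1, which carries the seed match, under mimic was thus bounded at -0.38 on the log2 scale by the 95% interval. In the same 9 libraries Tead1 had a log2 fold change of 0.24 for mimic against control (unadjusted p 0.0618) and Wwtr1 one of -0.33 for inhibitor against control (unadjusted p 0.0539), with edgeR adjusted p of 0.911 and 0.9995. The other members there had log2 fold changes for mimic against control of 0.14 (Lats1), 0.19 (Lats2), 0.06 (Amotl2) and -0.25 (Wwtr1). For inhibitor against control they were -0.01 (Lats1), 0.31 (Lats2), -0.14 (Amotl2) and 0.12 (Tead1). Every 95% interval for these 6 members still included 0.

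**Figure D2:**
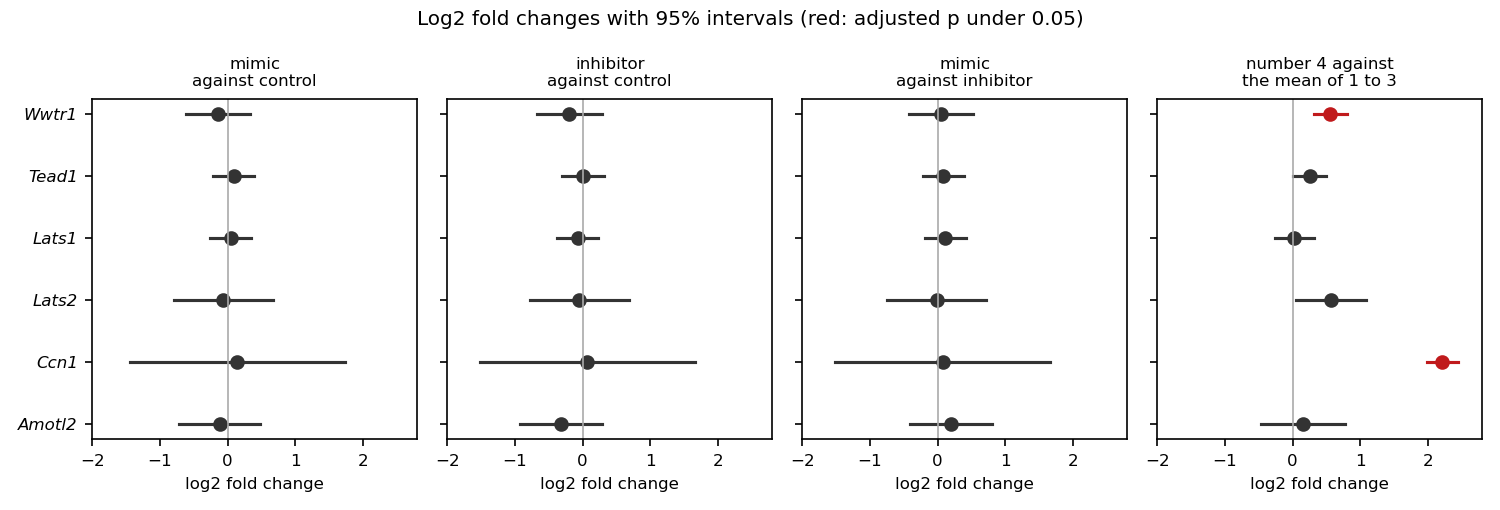
Log2 fold changes (horizontal axis; points) with 95% intervals (lines) of the 6 members tested with edgeR, for the 3 treatment comparisons and for replicate number 4 against the mean of numbers 1 to 3. All 6 intervals in each treatment panel include 0, and in the fourth panel Ccn1 at 2.21 and Wwtr1 at 0.56 are drawn in red as called.

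The low members bear on the same question only through few counts. Ccn2, the connective tissue growth factor gene, had 0 counts in each of the 4 control libraries, 0, 0, 0 and 3 in the mimic libraries, and 4, 4, 5 and 4 in the inhibitor libraries. All 4 inhibitor libraries were thus above all 4 control libraries, which is the case for 0.66% of the 15767 genes in either direction, and Ccn2 was the only member of which this held. A floor of 3 counts would allow 0.04 to 0.0456 CPM, counts scaled to library size, in the control libraries, just under the inhibitor values of 0.0585 to 0.0749 CPM. Ccn2 did not pass the filter. Without the filter its unadjusted p was 0.0124 in edgeR and 0.0299 in DESeq2, and its adjusted p was 1.0 and 0.99993. A single count in this table need not be a single read: the value 4 occurs 2801 times, against 1325 times for 3 and 1234 times for 5, so intervals and floors based on counting may be too narrow. In all, 5 genes had a count in every inhibitor library and in no control library, and 6 genes had the reverse.

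Amotl2 had 35 to 87 counts in control, 52 to 77 in mimic and 48 to 56 in inhibitor libraries, and its log2 fold change was -0.32 (95% interval -0.92 to 0.29) for inhibitor against control and -0.12 (-0.72 to 0.48) for mimic against control. Ajuba had 7, 8, 6 and 12 counts in control, 4, 9, 9 and 0 in mimic and 0, 11, 7 and 0 in inhibitor libraries. Its 3 libraries at 0 lay in the treated groups, but the ranges overlapped and its unfiltered edgeR p was 0.621 for mimic and 0.547 for inhibitor against control. Ankrd1, a cardiac and muscle target of YAP, had 15, 13, 0 and 7 counts in control, 0, 8, 0 and 8 in mimic and 0, 4, 6 and 36 in inhibitor libraries. Inhibitor library 4 alone held 36 of the 97 Ankrd1 counts of the study. Neither gene can be read as present or absent in a group at this depth.

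The second way to arrange the libraries was by replicate number, as named in the rule for these genes. Here 2 members differed, and Ccn1 most of all: it was 4.3 times as high in number 4 as in the mean of numbers 1 to 3 in the control group, 5.28 times in the mimic group and 4.36 times in the inhibitor group. The test treats the 3 libraries that share a number as its replicates and keeps treatment as a term. In edgeR's test for any difference among the 4 numbers, 2 of 6 members were called, Ccn1 (adjusted p 2.22e-06) and Wwtr1 (adjusted p 0.0125), beside 27.3% of all genes. The 3547 genes behind that share became 5884 without control library 2 and 1807 without inhibitor library 4. That the contrast lies between number 4 and the rest was known from earlier results of these data, so the following values describe where the members stand in it. Numbers 3 against 1 and 2 gave 0 of 6 members called and 0 at an unadjusted p under 0.05, beside 0% of all genes called and 282 genes at that unadjusted p. That count of genes hung on control library 2, without which 569 genes were called and 2378 were at that unadjusted p, and DESeq2 called 141 genes on all libraries; 0 of the 6 members were called in either.

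For number 4 against the mean of numbers 1 to 3, 2 of 6 members were called and both were higher in number 4, where 41.5% of all genes were called and 20.4% were called higher. The members' count is thus close to what the table as a whole gives, and what stands out is the size of the Ccn1 difference. In CPM, Ccn1 was 15.4 ± 1.45 (SD, n = 3) in number 4 and 3.33 ± 0.314 (n = 9) in the others. All 3 number 4 libraries (14.2, 17.1 and 15.0 CPM) lay above all 9 others (2.81 to 3.86 CPM). Its log2 fold change was 2.21 ± 0.10 (SE; edgeR adjusted p 1.91e-07). Of 13014 genes tested, 35 had a higher log2 fold change and 20 a smaller p.

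Wwtr1 was the other member above in all 3, which holds for 17.9% of all genes. It stood at 30.7, 32.5 and 32.8 CPM in number 4 and from 16.6 to 26.7 CPM in the 9 other libraries. Its log2 fold change was 0.56 ± 0.11 (SE; edgeR adjusted p 0.00236), and it was 1.22, 1.54 and 1.65 times as high as the mean of its group's other libraries in control, mimic and inhibitor. Wwtr1 was called in this contrast whichever library was left out. In the test for any difference among numbers, however, its adjusted p rose to 0.0776 without mimic library 4 and to 0.108 without inhibitor library 4.

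Tead1 and Lats2 were not called, with log2 fold changes of 0.25 (95% interval 0.01 to 0.49; edgeR adjusted p 0.0853) and 0.57 (0.06 to 1.08; adjusted p 0.0714). Tead1 was 1.46 times as high in number 4 in the control group but 1.01 times in the mimic and 1.12 times in the inhibitor group. Lats2 was 2.14, 1.3 and 1.01 times as high, so the control libraries carried most of both differences. Their adjusted p depended on single libraries: Tead1 reached 0.0367 without control library 2 and 0.0486 without mimic library 4, and Lats2 reached 0.041 without inhibitor library 2 and 0.0496 without inhibitor library 4. Lats1 had a log2 fold change of 0.03 (-0.26 to 0.31) and Amotl2 one of 0.15 (-0.47 to 0.78).

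Of the low targets, Ankrd1 had 7, 8 and 36 counts in number 4 and 0 to 15 in the other 9 libraries, 4 of them at 0. Ajuba had 12, 0 and 0 counts in number 4, and Ccn2 had 0, 3 and 4. The unfiltered edgeR p for number 4 was 0.152 for Ankrd1, 0.378 for Ajuba and 0.369 for Ccn2. The fitted log2 fold changes were 2.06 ± 1.34 (SE) for Ankrd1, -1.34 ± 1.46 for Ajuba and 1.74 ± 1.84 for Ccn2. At these counts a rise as large as that of Ccn1 could be neither shown nor excluded for Ankrd1 and Ccn2. For Ajuba the fitted value was below 0, and all 12 of its counts in number 4 lay in the control library. For Amotl2, with 187 counts over the number 4 libraries, the upper end of the interval was 0.78.

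The wider pathway was described with 5 lists of 84 genes, of which 73 had a row and 64 were tested, the 6 members included. In the 3 treatment comparisons 0 of the 64 were called, and 0 had an unadjusted p under 0.05. For number 4 against the others 23 were higher and 9 lower, or 50% beside 41.5% of all genes, with a median log2 fold change of 0.16 against -7.05e-05 over all genes. Leaving out 1 library gave 18 to 31 higher and 5 to 11 lower, with 5 lower without mimic library 4 or without inhibitor library 4. Genes named below are the most abundant of each list, and those marked as picked were chosen after their values were seen.

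In the kinase cassette and its scaffolds 6 of 15 tested genes were higher and 0 lower, with a median of 0.22. That is 40% beside 41.5% of all genes (20.4% higher). Taok1 and Taok2, kinases that activate MST, were called at 0.55 and 0.15 on the log2 scale, while Mob1a, a LATS partner, at 0.22, Stk4 at 0.15, Map4k4 at 0.09 and Mink1 at 0.07 were not. Stk3, an MST kinase picked for its value, was higher by 0.57 (edgeR adjusted p 0.00243). Without 1 library the count of higher genes ran from 3, without control library 4, to 7.

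Among the upstream activators and polarity proteins 6 of 13 were higher and 1 lower, or 53.8% beside 41.5% of all genes. Nf2, the Merlin tumour suppressor that brings LATS to the membrane, was higher by 0.13 and its partners Wwc1 (KIBRA) and Wwc2 by 0.19 and 0.25. Scrib at 0.01, Llgl1 at 0.11 and Crb2 at 0.14, all polarity genes, were not called. The single lower gene was Rassf1, a scaffold of MST kinases, at -0.65, named because its count is 1.

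Among the LATS inhibitors, YAP binders and STRIPAK genes, which include the phosphatase complex that acts on MST, 2 of 18 were higher and 5 lower, or 38.9%, close to the 41.5% of all genes. Without control library 2 there were 5 higher and 5 lower, without inhibitor library 4 there were 1 and 2, without mimic library 4 there were 2 and 2, and without control library 4 or mimic library 3 there were 2 and 3. Ywhaz, one of the 14-3-3 proteins that hold phosphorylated YAP in the cytoplasm, was higher by 0.27, and Ywhab, another, was lower by 0.16. Ywhae at 0.08 and the casein kinases Csnk1d at -0.06 and Csnk1e at 0.08 were not called, and Strn4, a STRIPAK subunit, was lower at -0.36. The 14-3-3 genes were the most abundant of all 5 lists, from 372 to 833 TPM, against 16.6 TPM for Wwtr1.

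Of the YAP, TAZ and TEAD list of 9 genes, 5 had a row and 4 were tested. Of these, 3 were higher and 0 lower, or 75% beside 41.5% of all genes (20.4% higher). Besides Wwtr1 the higher genes were Tead2 at 0.55 ± 0.12 (SE) and Tead3 at 0.71 ± 0.11, with edgeR adjusted p of 0.00452 and 0.000498. In TPM Tead2 and Tead3 were far below Tead1 (16.8), at means of 2.14 and 1.59, and Tead4 stood at 0.0445 and was not tested. Without 1 library, 2 to 4 of the list were called higher.

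Among 28 listed YAP and TAZ targets 24 had a row and 18 were tested, of which 7 were higher and 3 lower in number 4, or 55.6% beside 41.5% of all genes (20.4% higher), with a median of 0.17. Ccn1 at 2.21 was the highest of them. The other 6, of which F3 and Wwc1 are named by the rule and the rest were picked, were Dock5 (1.34), Rbms3 (0.55), Arhgef17 (0.51), F3 (0.40), Axl (0.40) and Wwc1 (0.19). The 3 lower genes were Crim1, also picked, at -0.60, Gadd45a at -0.37 and Tgfb2 at -0.33. Birc5 at 0.03 and Fjx1 at 0.11 were not called. Targets of the list that were called thus lay on both sides of 0.

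**Figure D3:**
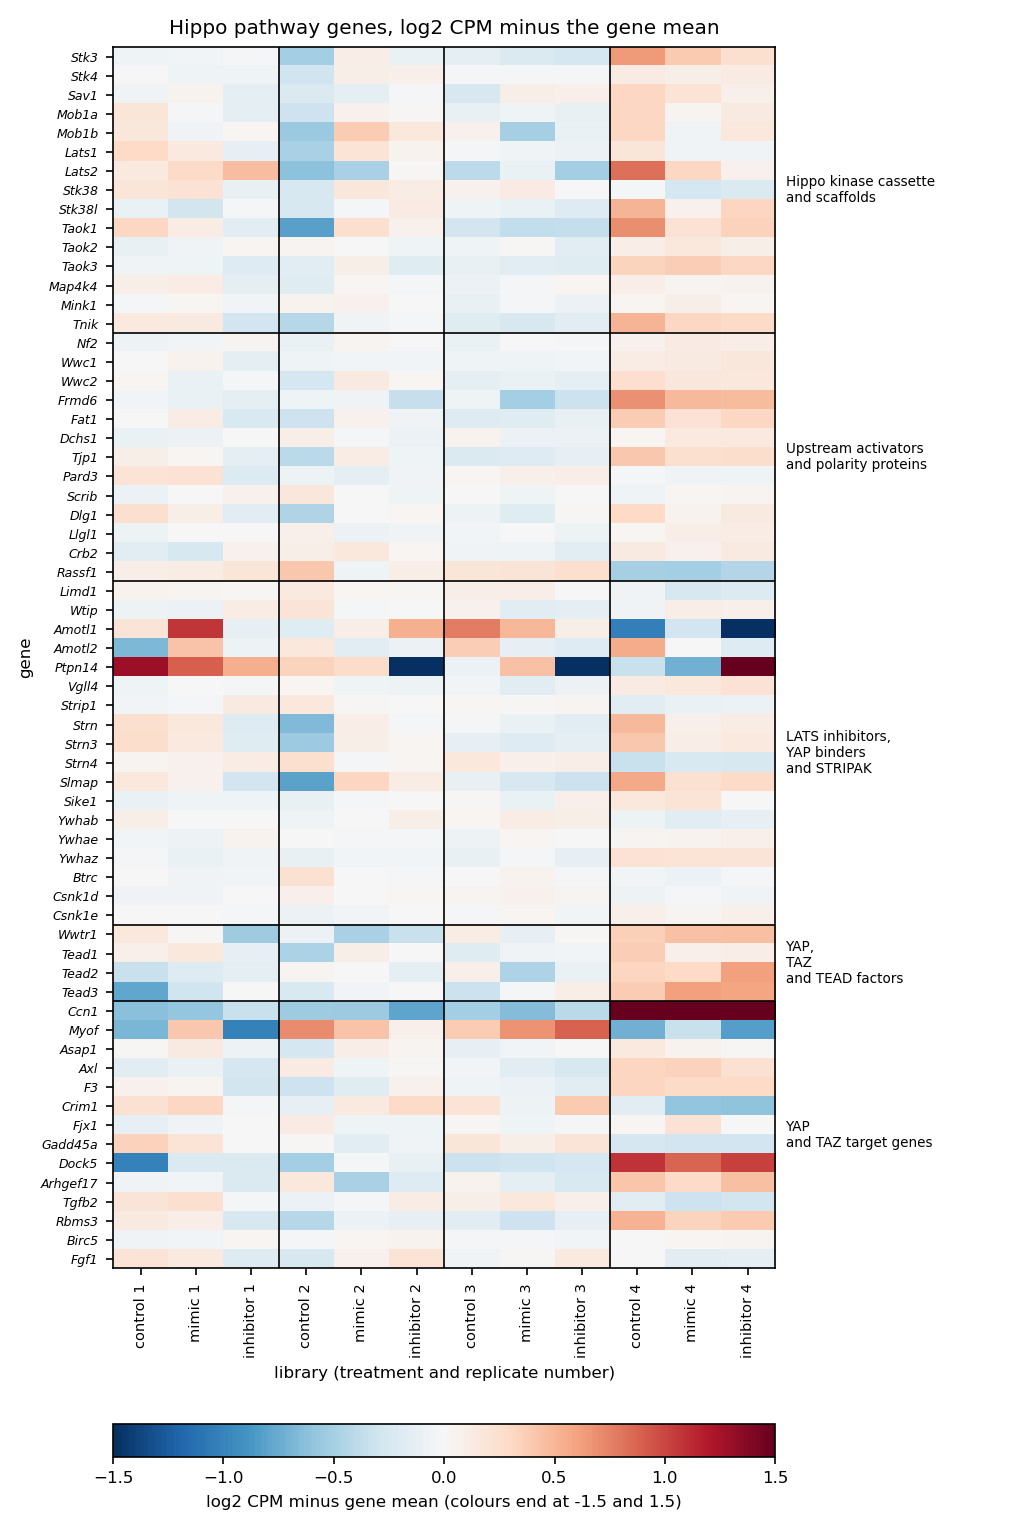
Each row is a tested gene of the 5 Hippo lists and each column a library, ordered by replicate number; colour is the log2 CPM minus the gene's mean over the 12 libraries, ending at -1.5 (blue) and 1.5 (red). Ccn1 is dark red in the 3 number 4 columns, Rassf1 is blue there, and control library 2 is blue for many kinases, including Lats1 and Lats2.

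The number 4 libraries differed in many other genes, so the members' values are given beside those of neighbouring programmes. Of 16 genes induced by low oxygen, 15 were higher in number 4 and 0 lower, or 93.8% beside 41.5% of all genes. The median log2 fold change was 1.43. The most abundant genes of the list were Ldha (0.45), Egln1 (0.82), Pgk1 (0.80), Bnip3 (2.28), Slc2a1 (2.36) and Vegfa (0.27), all called. The list's summed level was 3400 to 3600 TPM in number 4 and 1820 to 1990 in the others. Of 19 SRF and actin cytoskeleton genes, which respond to actin tension, 12 were higher and 0 lower, or 63.2% beside 41.5% of all genes. Their median was 0.33. The higher genes included Cnn2 (1.13), Myh9 (0.75), Actg1 (0.62) and Actb (0.43), while Flna at 0.05 was not called.

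Of 13 immediate-early genes 7 were higher, among them Ier3 (2.29) and Jun (0.18), and 2 were lower, Atf3 (-1.20) and Ier2 (-0.59). The share called was 69.2% beside 41.5% of all genes. Junb at -0.12 and Egr1 at -0.04 were not called. Of 17 proliferation genes 9 were higher and 2 lower, or 64.7% beside 41.5% of all genes. Top2a (0.58), Ccnb2 (0.25) and Cdk1 (0.22) were among the higher. The lower genes were Mcm5 (-0.33) and Cdc6 (-0.285), named because their count is 2. Mcm2 at 0.08, Mcm6 at -0.08 and Pcna at -0.12 were not called. Of 7 cadherin and catenin genes 3 were higher and 0 lower, or 42.9% beside 41.5% of all genes (20.4% higher). All 3 were catenins: Ctnna1 (0.40), Ctnnd1 (0.38) and Ctnnb1 (0.24). Cdh2 at 0.28 and the catenins Ctnna2 at 0.14 and Jup at 0.13 were not called.

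Markers of other cell types were read in the same contrast. The fibroblast and mesenchymal list had 8 of 13 markers with a row, and 3 of 7 tested were higher: Vim (0.45), Fn1 (0.40) and Pdgfra (0.87). That is 42.9% with 0 lower, beside 41.5% of all genes (20.4% higher). Its summed level was 950 to 983 TPM in number 4 and 671 to 792 in the others. Nearly all of it was Vim, which this line expresses at a mean of 740 TPM. Fn1 averaged 30.4 and Pdgfrb 6.92 TPM, while Col1a1 was at 0.619 and Col1a2 at 0.00861 TPM. Of the line's own markers 1 of 12 was higher and 7 lower (4 lower without control library 4), and their sum was 7640 to 7870 TPM against 7660 to 8570. The glial, immune and endothelial, and epithelial lists summed to at most 7.47 TPM in any library. Of their tested genes, 0 of 3 glial, 1 of 3 immune and endothelial and 0 of 2 epithelial markers were called, the 1 being Pecam1, higher by 0.53 (edgeR adjusted p 0.0114). The part of these programmes and markers in the values of Ccn1 and Wwtr1 was not tested, and in bulk RNA a change in the share of cells and a change in RNA per cell cannot be told apart.

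**Figure D4:**
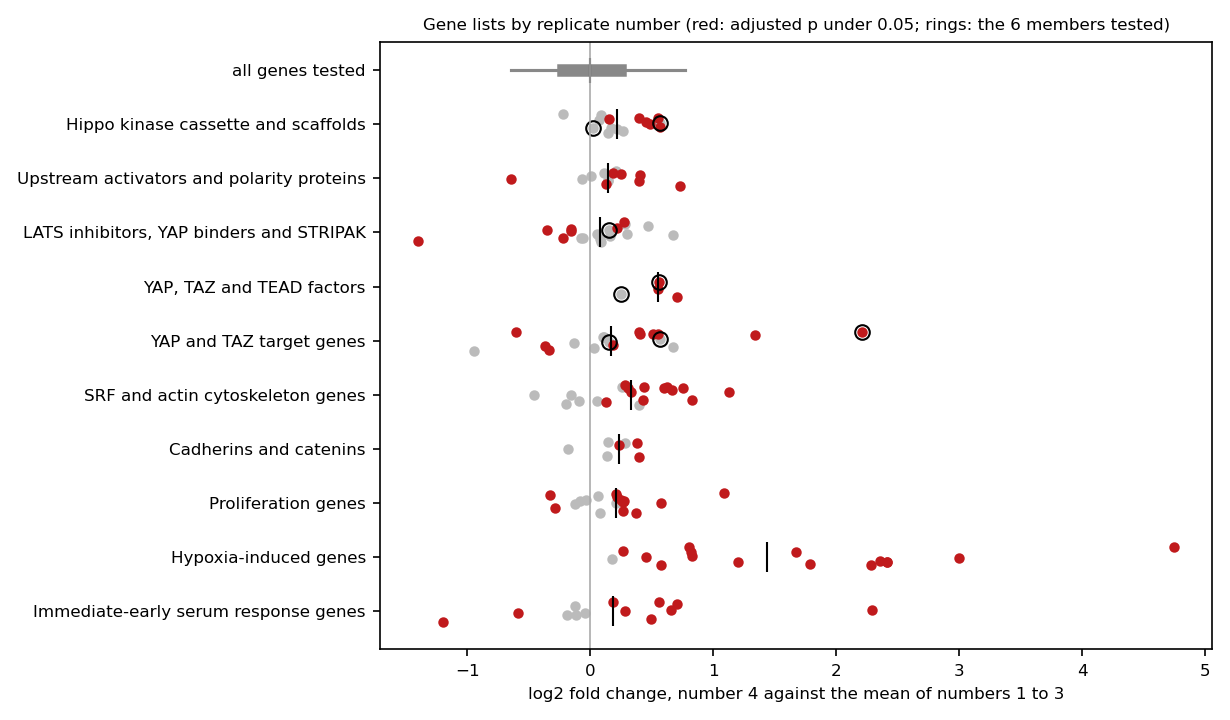
Log2 fold change of number 4 against the mean of numbers 1 to 3 (horizontal axis) for each tested gene of 10 lists (points; red called by edgeR, grey not; vertical spread is only for legibility), with each list's median as a black bar and rings around the 6 tested members. The grey bar at the top gives the middle 50% (thick) and 90% (thin) of all genes; the low-oxygen list sits farthest right, with a median of 1.43, and Ccn1 at 2.21 stands apart from the other targets.

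The members did not vary together as one block. Over the 12 libraries, which share number and depth as sources of likeness, Wwtr1 and Ccn1 had a Pearson correlation of log2 CPM of 0.74, but of -0.12 over the 9 libraries of numbers 1 to 3. Tead1 and Lats1 had one of 0.82 over 12 and of 0.92 over the 9 libraries, both being lowest in control library 2. The correlation of Ccn1 with Lats1 was 0.02 and that with Tead1 was 0.49, falling to -0.34 and -0.28 over numbers 1 to 3.

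The genes most like each member were sought among 11016 genes averaging 2 CPM or more over the 12 libraries. For Ccn1 they were Anxa2 (r 0.994), Slc2a3 (0.993) and Kdm5b (0.992), whose own log2 fold changes in number 4 were 2.04, 1.33 and 0.74, and 679 genes had an r over 0.9. For Wwtr1 they were Pparg (0.963), Sel1l3 (0.949) and Tm6sf1 (0.947), and 17 genes had an r over 0.9. For Tead1 they were Arhgef12 (0.978), Brca1 (0.976) and Slk (0.976), with 430 genes over 0.9, and for Lats1 they were Zfp281 (0.981), Otud4 (0.978) and Rimoc1 (0.977), with 202. Lats2 and Amotl2, the members with the fewest counts among those tested, had 0 genes over 0.9, and the most like were Polq (0.856) and Mcee (0.764).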

How the data were processed

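RNA from 12 Neuro-2a libraries was measured, 4 in each of 3 groups set by the treatment in the labels. The deposited files give, for each gene, whole-number counts and TPM. GRCm39 was the build, and edgeR, featureCounts, StringTie, STAR and fastp were the tools, per the submitters' processing notes; what each tool did, and its version, is not stated in the labels used here. The TPM values of the authors follow the deposited counts with a fixed length per gene, the ratio of TPM to count, after scaling for the library, varying by a median of 0.000227% (SD) between libraries. The tables named 15499 genes, a separate name table gave symbols for 260 more, and 8 had none. Sequences come from RefSeq (GRCm38.p6) and 3' UTRs from GENCODE M21.

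The 10 genes, the gene lists, the test of number 4 and the alternatives were chosen with earlier results of these data known. Besides the 10 genes, the text names up to 6 genes of each list with the highest mean TPM, and the 3 genes most like each member tested (highest Pearson correlation of log2 CPM, prior count 2). Others are said to be picked or are named because a count was small. Some genes of the lists are not reported here by name.

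The count test was edgeR 4.0.16 (R 4.3.3): TMM scaling, filterByExpr by group, which left 13014 genes and 6 of the 9 measured members, and a robust quasi-likelihood fit with two-sided tests. Treatments were compared with group as the term, and numbers with group and number as terms. Calls needed a p adjusted by Benjamini-Hochberg over all genes tested that was under 0.05. CPM used the scaled library sizes. Alternatives were other scalings, no filter, DESeq2 1.42.0, limma 3.58.1 on log2(TPM + 1) and log2(TPM + 0.1) of the deposited TPM, a replicate block, no group term, leaving out each library and leaving out number 4. The counts of called genes in the lists under these settings were added after the data were seen. The edgeR steps were checked on simulated data, with changes planted only in genes of a higher mean CPM than Ccn1, Lats2 and Amotl2. The check therefore does not bear on these members. Its simulated treatment change carried no difference by number. With 4 libraries a group and 3 a number, the intervals cover the spread between libraries only.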

Additional observations from a re-analysis of the deposited data

Results flagged for a closer look

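Within a group of 4 libraries, the highest or lowest stood apart from the other 3 in 5 of 27 combinations of gene and group examined, by Dixon's 95% criterion. Chance gives about 1 such library in 20 groups. Ccn1 met it in all 3 groups: control library 4 at 14.2 CPM beside 3.14 to 3.43 in the other control libraries, mimic library 4 at 17.1 CPM beside 3.09 to 3.34, and inhibitor library 4 at 15.0 CPM beside 2.81 to 3.86. Ccn2 met it in mimic library 4, at 0.0496 CPM or 3 counts, but with the other mimic libraries at 0 any count would meet it. Ankrd1 met it in inhibitor library 4, at 0.564 CPM or 36 counts, beside 0 to 0.0899 CPM. All 5 cases, that of Ccn2 included, lay in libraries with the replicate number 4.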

How the results depend on the processing

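In the 3 treatment comparisons 0 members were called under any of the 21 alternatives run, beside at most 6 genes (DESeq2, mimic against inhibitor). The replicate block, by which same-numbered libraries were paired, called 0 genes in each, but the numbers 1 to 3 correlated within number by only -0.0709 to 0.218 (number 4 by 0.444 to 0.526), and 9 of 12 libraries correlated best with their own number. It turned Lats2 for inhibitor against control to 0.0177 and Ccn1 for mimic against inhibitor to -0.0148. Without number 4, Lats2 turned to 0.19 and Amotl2 to 0.0596 for mimic against control, Ccn1 to -0.0367, Lats2 to 0.31 for inhibitor against control, and Ccn1 to -0.10 for mimic against inhibitor. Lats2 for mimic against inhibitor was 0.00667 in unfiltered limma. None of these values was called. Leaving out 1 library gave the following log2 ranges: for inhibitor against control, Ccn1 -0.81 to 0.94, Lats1 -0.21 to 0.0377, Lats2 -0.23 to 0.31, Tead1 -0.12 to 0.16; for mimic against control, Amotl2 -0.32 to 0.0417, Ccn1 -0.90 to 1.01, Lats1 -0.0924 to 0.15, Lats2 -0.24 to 0.30, Tead1 -0.0363 to 0.24; for mimic against inhibitor, Ccn1 -0.97 to 0.95, Lats2 -0.16 to 0.16, Wwtr1 -0.13 to 0.27; for number 3 against numbers 1 and 2, Amotl2 -0.15 to 0.25, Ccn1 -0.0217 to 0.14; for number 4 against numbers 1 to 3, Amotl2 -0.0867 to 0.27, Lats1 -0.0873 to 0.11. For number 4 against the others Ccn1 ran from 2.09 to 2.26 and Wwtr1 from 0.464 to 0.675, called each time, and Lats2 was also called without the group term (adjusted p 0.0422). The count of members differing among any numbers fell from 2 to 1 without mimic library 4, without inhibitor library 4 and in unfiltered limma (Wwtr1 adjusted p 0.0656), and Lats1 joined it without control library 2 (0.0492). The cause was not tested. Depth limits Ccn2, Ajuba and Ankrd1, which the filter removed.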
